A study of Homo sapiens with 18 samples.

Results

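The mitochondrial ribosome is built from RNA made in the mitochondrion and from proteins encoded in the nucleus, and the genes of those proteins carry the symbols MRPL for the large subunit and MRPS for the small subunit. A gene was taken as a member when its symbol was MRPL or MRPS followed by a number and at most 1 letter. This gave 78 genes out of 37096 named genes in the table, 49 of them MRPL and 29 MRPS, and all 78 were among the 17755 genes tested. No measured value entered this choice.

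Mitochondrial ribosomes translate the few messages of the mitochondrial genome, which encode core subunits of the respiratory chain and of ATP synthase. Their proteins are made in the cytosol and imported, so their supply is coupled to cytosolic translation and to nuclear transcription. Some of them have counterparts in bacteria and others are specific to mitochondria, and several MRPS proteins have been placed in the large subunit in structures of the human ribosome. MRPS30 and MRPS18A are of that kind, and MRPS36 is a subunit of the 2-oxoglutarate dehydrogenase complex. Placed by structure, 51 members belonged to the large and 26 to the small subunit.

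The RNA came from wild-type HEK293T, a human embryonic kidney line that is transfected easily. Cells received either the empty vector pLEX or MethionaseNLS, which by its name is a methionase, an enzyme that breaks down methionine, with a nuclear localisation signal. Poly-A RNA was sequenced at 12 h in DMSO, at 24 h in DMSO, and at 24 h after 12 h of 5 µM Vps34-IN1. This compound inhibits VPS34, a lipid kinase of autophagy and endosomal traffic. Each of these 3 conditions was run with both constructs, which gave 6 groups of 3 libraries. The labels name no inactive methionase, so the activity of the enzyme and the expression of a foreign protein cannot be told apart. They do not say whether DMSO was present for the same time in all groups, nor whether the replicates were separate cultures. The p-values therefore measure only the spread between these libraries, which may be technical.

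Libraries held between 18278586 and 20825232 reads assigned to named genes, and the members together took between 0.556% and 0.612% of them. Among markers of the line, NEFL ranged from 2216 to 3664 normalised reads, whereas LHX1 did not exceed 14.9. Of the markers of other cell types, CD3E, DCN and PECAM1 did not exceed 4.06 normalised reads and ALB did not exceed 20.3, while COL1A1 ranged from 402.5 to 672 and GFAP from 28.7 to 57.4. PTPRC and HBB were not analysed here. The summed level of the 8 line markers lay between 21870.0 and 23280.0 in empty vector libraries at 24 h in DMSO and between 27650.0 and 35970.0 in methionase libraries. The summed reads of the 6 other-type markers present ranged from 538 to 656 in empty vector cells at 24 h in DMSO and from 600 to 729 in methionase cells, and the part of either list in the results was not tested. Normalised reads here are the recovered read counts divided by the size factor of each library.

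Some members share sequence with other lines of the table. There were 41 pseudogene lines for 24 members, and 3 of these lines held more than 1% of the reads of the parent gene. MRPL45P2 held 26.4% of the level of MRPL45 and MRPS31P5 22.8% of that of MRPS31, so how reads of these members were split is uncertain. In GENCODE 29, exons of 39 of the 78 members overlap an exon of another gene, 28 on the opposite strand. The strand setting of the counting is not given in the sources used here. Reads of such pairs may therefore not have been told apart. MRPS24 overlaps the readthrough gene URGCP-MRPS24, which averaged 2.10 reads, and its own level is uncertain for that reason.

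Levels of the members differed widely. Divided by the length of all annotated exons, the median member had 510 normalised reads per kilobase in empty vector cells at 24 h in DMSO. MRPL12, which forms the flexible stalk that recruits translation factors, was highest at 3039.9 ± 131 normalised reads per kilobase (SD, n = 3). MRPL37 followed at 2909 ± 18.6 (SD, n = 3), below all MRPL12 libraries, and MRPL51 at 2428 ± 51.5 (SD, n = 3), below both. MRPS18B, 1 of the 3 human counterparts of bacterial S18, was lowest at 11.4 ± 4.11 (SD, n = 3), and MRPS24, at the entrance of the mRNA channel, was next at 19.3 ± 4.55 (SD, n = 3). The medians per kilobase were 525 for MRPL and 341 for MRPS genes. Exon length in the annotation includes rare exons, so a level per length is low for genes such as MRPL42, whose annotated exons span 16393 bases.

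The ratio of summed MRPL to summed MRPS reads lay between 1.90 and 2.01 in all 18 libraries. Summed MRPL reads were 1.93, 1.95 and 1.90 times the summed MRPS reads in the 3 libraries of empty vector at 24 h in DMSO. In methionase cells at 24 h in DMSO the ratio was 1.97, 1.97 and 2.01. These 2 groups did not overlap. With Vps34-IN1 the ratio was 1.97, 1.92 and 1.92 with the empty vector and 1.99, 1.96 and 1.99 with methionase, and these overlapped. When members were placed by structure, the corresponding ranges were 2.08 to 2.13 and 2.13 to 2.16 and did not overlap. At 12 h the ratio lay between 1.91 and 1.93 with the empty vector and between 1.91 and 1.94 with methionase.

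**Figure D1:**
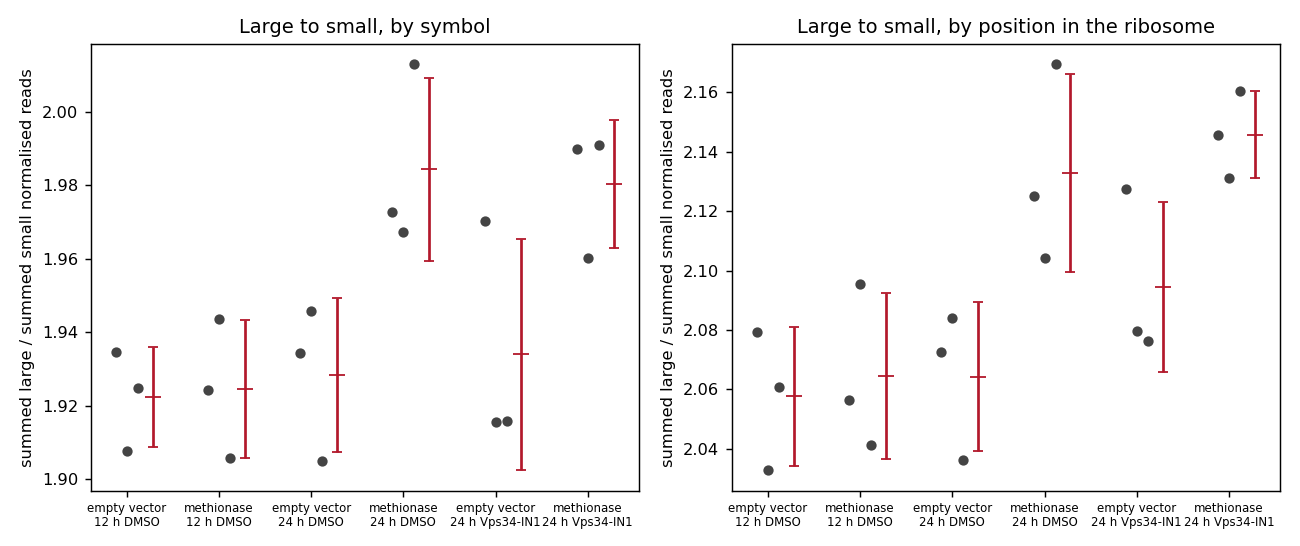
Ratio of summed large-subunit to summed small-subunit normalised reads per library (points, 3 per group) with the mean and SD (red), members placed by symbol on the left and by structure on the right; the vertical axes do not start at 0. By symbol, methionase at 24 h in DMSO lies at 1.97 to 2.01 and the empty vector at 1.90 to 1.95.

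Taking the mean of each group, the members split over the conditions in which they were highest. The highest mean was in methionase cells with Vps34-IN1 for 31 members, of which 25 were MRPL and 6 MRPS. Empty vector cells at 12 h held the highest mean of 26 members, 13 of each kind, and empty vector cells with Vps34-IN1 that of 15. No member was highest in methionase cells at 12 h. Empty vector cells at 24 h in DMSO held the lowest mean of 24 members. These counts order group means and carry no test.

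At 24 h in DMSO, some members were higher with methionase and others lower. With limma on the deposited variance-stabilised log2 values and a Benjamini-Hochberg adjusted p below 0.05, which is what called means below, 17 members were higher and 12 lower than with the empty vector. All tested genes were called at 39.2% in this comparison, 18.1% higher and 21.1% lower. The members' share of 37.2% is close to that background and says nothing particular about them. The libraries are bulk RNA, so fewer cells of a type and less RNA per cell cannot be told apart. The median difference was 0.07 log2 over the members and 0.01 over all tested genes. MRPL genes were called higher in 14 and lower in 7 of 49 cases, with a median of 0.10, and MRPS genes in 3 and 5 of 29, with a median of 0.05; whether the subunits differ was not tested. With quantile normalization the members split into 29 higher and 11 lower, and without empty vector 24 h DMSO replicate 1 into 11 and 12. Of reads assigned to named genes, the members took 0.582 ± 0.00426% with the empty vector and 0.577 ± 0.0219% with methionase (mean ± SD, n = 3), with overlap. Mean size factors were 1.09 and 0.953. As a share of reads, the members together were thus not higher with methionase. The groups did not overlap for 24 members that were higher, against 23% of all tested genes, and for 12 that were lower, against 25.7%.

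**Figure D2:**
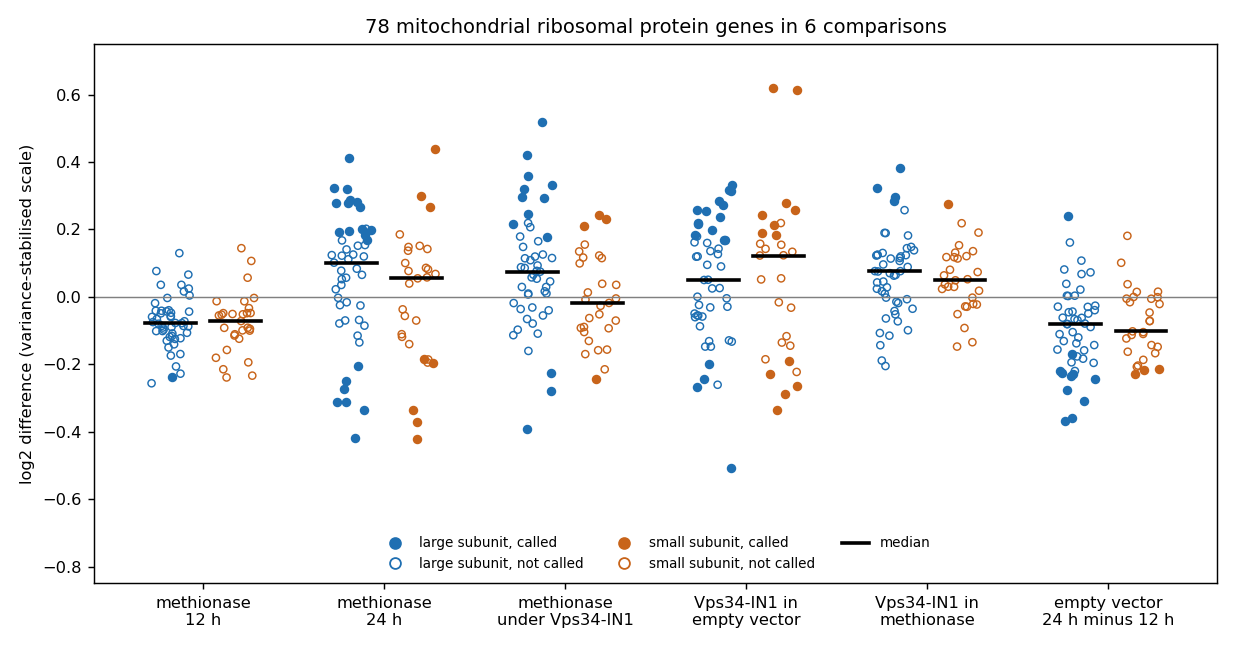
Log2 difference of each of the 78 members in 6 comparisons, with MRPL genes in blue and MRPS genes in orange; filled points were called and black bars are medians. Methionase at 12 h shows 1 filled point, while methionase at 24 h shows filled points on both sides of 0, from -0.42 to 0.44.

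MRPS30, a mitochondria-specific protein of the large subunit in spite of its symbol, rose most. Its normalised reads were 852, 823 and 789 in empty vector libraries and 1231, 1125 and 1076 in methionase libraries at 24 h. Every methionase library was above every empty vector library, 1.39 times as high on average, and the log2 difference was 0.44 ± 0.08 (SE, limma adjusted p = 0.000143). MRPL32, a counterpart of bacterial L32 that is cut by the mitochondrial m-AAA protease after import, had 795, 789 and 829.8 and then 1143, 1115 and 1035 normalised reads. The groups were again separate, although its exons overlap PSMA2 on the opposite strand, and the log2 difference was 0.41 ± 0.07 (SE, limma adjusted p = 7.54e-05). MRPL42, a mitochondria-specific protein, had 2345, 2437 and 2403 and 3126, 3280.3 and 2670.4 normalised reads, with a log2 difference of 0.32 ± 0.08 (SE, limma adjusted p = 0.00258).

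MRPL19, MRPS15 and MRPL34, counterparts of bacterial proteins, were also higher with methionase than with the empty vector. MRPL19, at the face between the subunits, differed by 0.32 ± 0.09 (SE, limma adjusted p = 0.00418). Its mean with the empty vector was 1945 normalised reads at 12 h and 1553 at 24 h in DMSO. With methionase it was 1810 at 12 h and 1968 at 24 h, and the change over time in methionase cells was not tested. MRPS15, a protein of the small subunit that binds its rRNA, differed by 0.30 ± 0.06 (SE, limma adjusted p = 0.00028), and MRPL34 by 0.28 ± 0.08 (SE, limma adjusted p = 0.01). The mitochondria-specific MRPL50 differed by 0.29 ± 0.10 (SE, limma adjusted p = 0.0266), but its libraries overlapped. MRPL58, a peptidyl-tRNA hydrolase built into the large subunit, differed by 0.28 ± 0.07 (SE, limma adjusted p = 0.00166).

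MRPS18A and MRPL51 fell most. MRPS18A, the copy of S18 that sits in the large subunit, had 681, 717 and 704 normalised reads with the empty vector and 597, 371 and 567 with methionase. No library overlapped, but the 3 methionase libraries were widely spread, its exons overlap RSPH9 on the opposite strand, and the log2 difference was -0.42 ± 0.10 (SE, limma adjusted p = 0.00191). MRPL51, a mitochondria-specific protein of the large subunit, went from 3684, 3843 and 3769 to 2911, 2607 and 2884 normalised reads. The log2 difference was -0.42 ± 0.06 (SE, limma adjusted p = 1.38e-05), and the methionase mean was 0.744 times that of the empty vector. Its exons overlap NCAPD2 on the opposite strand.

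The small-subunit proteins MRPS23 and MRPS31, both specific to mitochondria, fell as well. MRPS23 differed by -0.37 ± 0.07 (SE, limma adjusted p = 0.000162). MRPS31, whose pseudogene shares sequence with it, differed by -0.33 ± 0.07 (SE, limma adjusted p = 0.00038). MRPL1, which forms the mobile stalk where empty tRNAs leave, had 514, 505 and 512 normalised reads with the empty vector and 404, 384 and 376 with methionase, without overlap, and differed by -0.34 ± 0.09 (SE, limma adjusted p = 0.00327). MRPL57 differed by -0.31 ± 0.06 (SE, limma adjusted p = 0.00045), MRPL46 by -0.31 ± 0.08 (SE, limma adjusted p = 0.00368), and MRPL16, next to the peptidyl transferase centre, by -0.27 ± 0.06 (SE, limma adjusted p = 0.00059). The other 13 called members lay between -0.25 and 0.28.

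**Figure D3:**
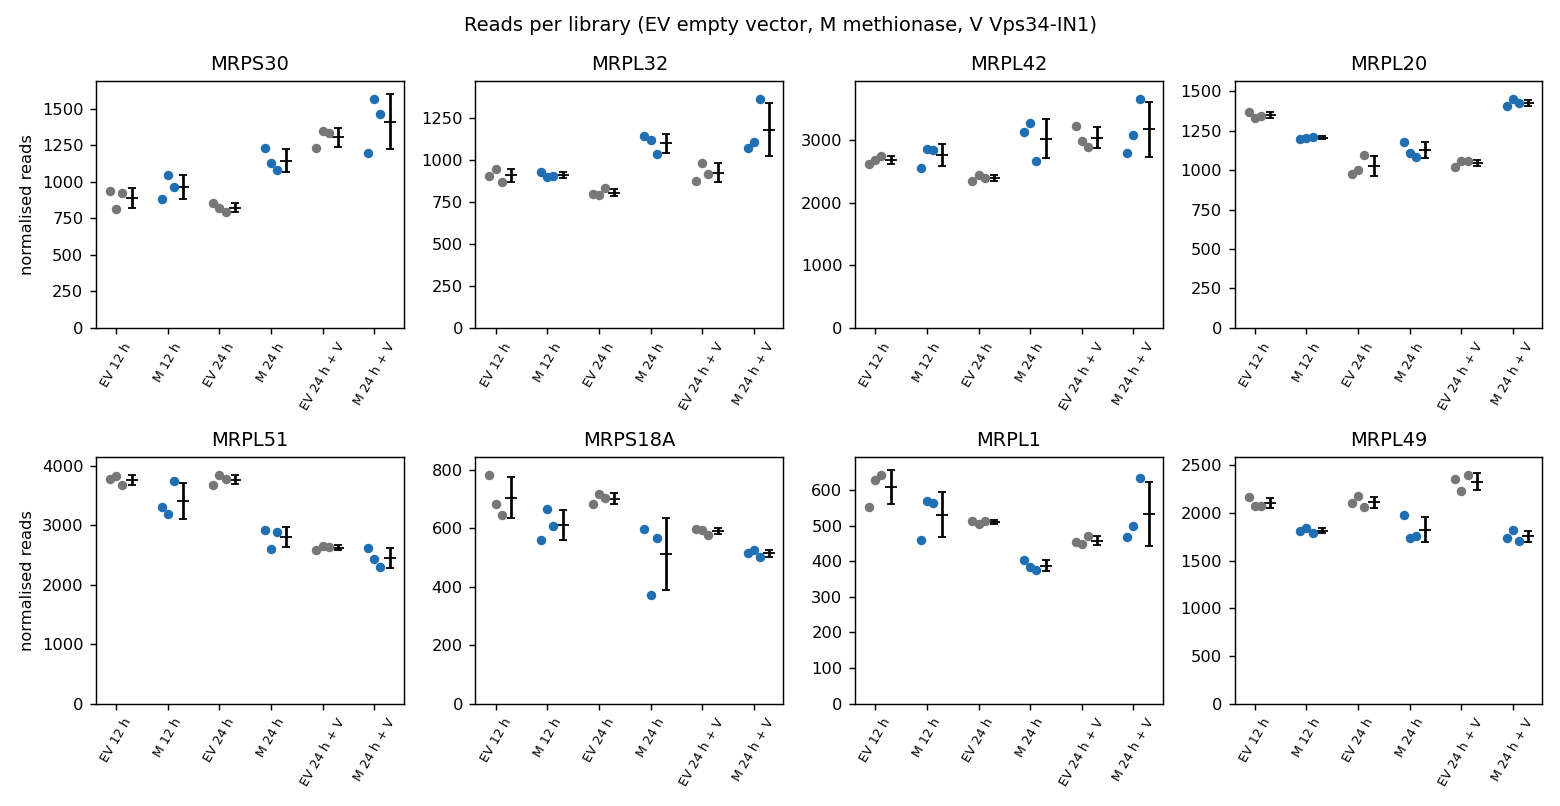
Normalised reads of 8 members in each library (points; grey empty vector, blue methionase) with the mean and SD of each group of 3 (black). MRPS30 and MRPL32 are higher and MRPL51, MRPS18A and MRPL1 lower with methionase at 24 h in DMSO, and every methionase library of MRPL49 is below every empty vector library of the same condition.

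Promoters of 4 members are shown because they are the ends of this range or were called in several comparisons. MRPS30 had the largest rise and MRPS18A the largest fall. MRPL51 and MRPL20 were added after their values were seen. Each line gives the 250 bases before the gene start from RefSeq, build GRCh38.p14, 5′ to 3′ on the strand of the gene, with CCGGAAG or its reverse complement CTTCCGG in capitals, letters that ETS factors such as GABPA bind.
MRPS30, chr5:44808697-44808946, plus strand: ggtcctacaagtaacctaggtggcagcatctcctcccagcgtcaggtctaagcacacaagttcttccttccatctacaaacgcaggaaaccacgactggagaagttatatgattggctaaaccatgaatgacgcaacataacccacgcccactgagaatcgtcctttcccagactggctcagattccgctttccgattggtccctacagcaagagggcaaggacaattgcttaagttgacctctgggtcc
MRPS18A, chr6:43687792-43688041, minus strand: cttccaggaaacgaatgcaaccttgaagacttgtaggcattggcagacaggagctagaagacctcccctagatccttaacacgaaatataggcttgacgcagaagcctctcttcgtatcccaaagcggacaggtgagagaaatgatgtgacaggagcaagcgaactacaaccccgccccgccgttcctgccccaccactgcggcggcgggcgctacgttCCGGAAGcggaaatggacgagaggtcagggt
MRPL20, chr1:1407294-1407543, minus strand: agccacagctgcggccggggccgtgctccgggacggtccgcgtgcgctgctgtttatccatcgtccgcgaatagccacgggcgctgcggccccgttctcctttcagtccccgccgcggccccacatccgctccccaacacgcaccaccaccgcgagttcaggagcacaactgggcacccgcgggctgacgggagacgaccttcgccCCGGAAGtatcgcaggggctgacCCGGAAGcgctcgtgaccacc
MRPL51, chr12:6493263-6493512, minus strand: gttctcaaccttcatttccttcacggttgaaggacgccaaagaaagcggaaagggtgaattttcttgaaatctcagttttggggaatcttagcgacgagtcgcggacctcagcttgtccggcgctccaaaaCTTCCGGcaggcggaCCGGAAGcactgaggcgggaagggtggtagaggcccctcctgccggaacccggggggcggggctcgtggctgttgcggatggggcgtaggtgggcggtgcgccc
MRPS18A holds 1 match, MRPL20 and MRPL51 hold 2 each, and MRPS30 holds none in these bases. Just past the start, MRPS30 and MRPS18A both hold a YY1 motif with the core letters AAGATGG, beginning at base 14 and base 10 of the transcribed part. MRPS30, which rose, and MRPS18A, which fell, both hold these letters.

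Promoter entries existed for 69 of the 78 members, covering 250 bases before and 50 after the gene start. On either strand, CCGGAAG was in 42.0% of them, in 17.4% of the promoters of tested genes and in 10.7% of all 27305 promoters. The YY1 motif was in 18.8% of the members' promoters, in 2.46% of those of tested genes and in 1.28% of all. The NRF1 motif was in 11.6%, 10.8% and 6.28%. Motifs can sit in the same promoter, and 4 members held both CCGGAAG and the YY1 motif. The median GC content was 60.3% in members and 65.3% in tested genes. Of members higher with methionase at 24 h, 4 of 16 with an entry held CCGGAAG and 4 held the YY1 motif. Of members that were lower, 6 of 11 held CCGGAAG and 2 held the YY1 motif. A match is a description of letters and not a bound site.

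At 12 h, MRPL16 was the 1 member called with methionase, which is 1.28% of the members against 2.17% of all tested genes, 0.681% higher and 1.49% lower. It had 1938, 2092 and 1942 normalised reads with the empty vector and 1622, 1678 and 1728 with methionase, without overlap, and differed by -0.24 ± 0.06 (SE, limma adjusted p = 0.0321). Leaving out any 1 of the 6 libraries at 12 h ended this call, with an adjusted p between 0.0563 and 0.156. No member was called higher by limma, none had an unadjusted p below 0.05 in that direction, and limma voom on the counts called 0 higher. Among lower values, 12 had an unadjusted p below 0.05. The share of all tested genes at that threshold was not computed, so this count has no background to be set against. Only 11 of 78 members lay above 0 and the median was -0.08 log2, against 0.00 over all tested genes. The groups did not overlap for 21 members that were lower, against 17.7% of all tested genes. Under quantile normalization the medians were -0.02 for MRPL and -0.01 for MRPS genes.

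The signed methionase difference at 24 h, minus that at 12 h, was called above 0 for 8 members and below 0 for 1, with 11.7% of all tested genes called, 5.33% higher and 6.33% lower. The members' share was 11.5%, near that background. Equal library medians gave 14 higher and 0 lower. MRPL19 differed by 0.42 ± 0.12 (SE, limma adjusted p = 0.0238), MRPL32 by 0.41 ± 0.10 (SE, limma adjusted p = 0.0108), MRPL48 of the central protuberance by 0.35 ± 0.09 (SE, limma adjusted p = 0.0173) and MRPS15 by 0.35 ± 0.08 (SE, limma adjusted p = 0.00824). MRPL51 was the member called in the other direction, at -0.28 ± 0.09 (SE, limma adjusted p = 0.0456), but that call was lost in 13 of 19 alternatives, among them the replicate block with an adjusted p of 0.0583, no filter with 0.0925 and equal library medians with 0.116. MRPL32, MRPS15 and MRPL9 were the 3 of the 9 whose call no alternative ended. Without methionase 12 h DMSO replicate 1 the count fell to 3, and without empty vector 24 h DMSO replicate 1 it fell to 4.

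Under Vps34-IN1, methionase raised 13 members and lowered 4 relative to the empty vector with the drug. All tested genes were called at 39.5%, 17.3% higher and 22.2% lower, while 21.8% of the members were called. MRPL genes were called higher in 10 and lower in 3 of 49 cases, with a median of 0.07, and MRPS genes in 3 and 1 of 29, with a median of -0.02. The MRPS median was 0.06 with quantile normalization and 0.01 with equal library medians, so its sign depends on the scaling. The MRPL median was 0.18 with quantile normalization. Quantile normalization gave 34 members higher and 3 lower.

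MRPL33 and MRPL20, counterparts of bacterial proteins, rose most under the drug. MRPL33 had 746, 732 and 839 normalised reads with the empty vector and 1174, 1159 and 1087 with methionase, 1.48 times as high on average. Its libraries were separate, its exons overlap BABAM2 on the same strand, and its log2 difference was 0.52 ± 0.08 (SE, limma adjusted p = 2.49e-05). MRPL20, whose bacterial counterpart acts early in assembly of the large subunit, had 1020.3, 1058 and 1058 and 1409, 1449.7 and 1423 normalised reads, with a log2 difference of 0.42 ± 0.06 (SE, limma adjusted p = 2.68e-06). Both groups of MRPL20 were tight and far apart.

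MRPL23 and MRPL39, near the exit of the nascent chain, differed by 0.36 ± 0.07 (SE, limma adjusted p = 0.000242) and 0.33 ± 0.07 (SE, limma adjusted p = 0.000296). MRPL32 differed by 0.32 ± 0.07 (SE, limma adjusted p = 0.00104). MRPL55 and MRPL52 of the central protuberance differed by 0.29 ± 0.06 (SE, limma adjusted p = 0.000469) and 0.29 ± 0.07 (SE, limma adjusted p = 0.00176). MRPL22, another protein of the exit tunnel, differed by 0.25 ± 0.07 (SE, limma adjusted p = 0.00966).

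MRPL49, specific to mitochondria, fell most under the drug. It had 2361, 2229 and 2399 normalised reads with the empty vector and 1741, 1818 and 1708 with methionase. The libraries did not overlap and the log2 difference was -0.39 ± 0.06 (SE, limma adjusted p = 8.84e-06). MRPL30 differed by -0.28 ± 0.07 (SE, limma adjusted p = 0.00194), MRPS35 by -0.24 ± 0.06 (SE, limma adjusted p = 0.00264), and MRPL10, which anchors the stalk, by -0.23 ± 0.06 (SE, limma adjusted p = 0.00762). Exons of MRPL49 overlap those of FAU on the opposite strand.

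The 2 tests of methionase at 24 h, in DMSO and under the drug, share no library. Both called MRPL32, MRPL39, MRPL55, MRPL58 and MRPS15 higher and MRPL49 lower. These 6 were 20.7% of the 29 members called in DMSO and 35.3% of the 17 called under the drug, and no member was called in opposite directions. Over all tested genes, 3091 were called in the same direction in both, 44.4% of those called in DMSO and 44.1% of those called under the drug, and 508 in opposite directions. Whether the members' shares differ from these was not tested.

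The methionase difference changed with the drug for some members. The interaction test takes the signed difference under Vps34-IN1 minus that in DMSO. It called 10 members above 0 and 1 below, with 21.8% of all tested genes called, 9.92% higher and 11.9% lower, and 14.1% of the members. MRPL1 changed most, from -0.34 in DMSO to 0.18 under the drug, a change of 0.52 ± 0.12 (SE, limma adjusted p = 0.00367). With the drug it had 455, 448 and 473 normalised reads with the empty vector and 468, 498 and 635 with methionase, and these libraries overlapped. MRPS31 went from -0.33 to 0.16, a change of 0.49 ± 0.10 (SE, limma adjusted p = 0.000723). MRPL57 went from -0.31 to 0.08, a change of 0.39 ± 0.09 (SE, limma adjusted p = 0.00331). The empty vector level of these genes also differed with the drug. Its mean was 511 normalised reads in DMSO and 459 with the drug for MRPL1, 723 and 556 for MRPS31, and 727 and 590 for MRPL57. MRPL20 and MRPS30, also called, went the other way, with 1027 and 1046, and 821 and 1303.

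MRPL23 was near 0 in DMSO, at 0.02, and changed by 0.34 ± 0.10 (SE, limma adjusted p = 0.0154). MRPS30 was the member called in the other direction, from 0.44 to 0.10, a change of -0.34 ± 0.11 (SE, limma adjusted p = 0.0362). That call was lost under several alternatives, among them no filter with an adjusted p of 0.0800 and without methionase 24 h Vps34-IN1 replicate 1 with 0.126. The count of called members was 7 without empty vector 24 h DMSO replicate 2, 7 without empty vector 24 h Vps34-IN1 replicate 2, and 18 without methionase 24 h Vps34-IN1 replicate 3.

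**Figure D4:**
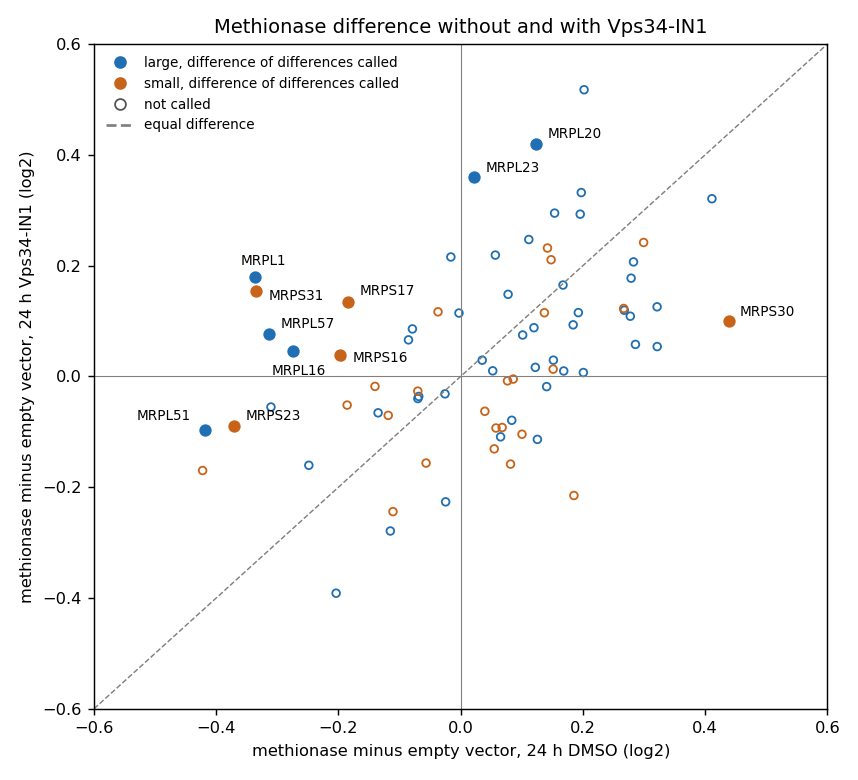
Methionase minus empty vector at 24 h for each member, in DMSO (horizontal) and under Vps34-IN1 (vertical), both in log2; named filled points were called in the interaction test and the dashed line marks equal differences. Of the 11 called members, 10 lie above the line and MRPS30 lies below it.

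Vps34-IN1 by itself, in empty vector cells at 24 h, raised 22 members and lowered 9. All tested genes were called at 40.1%, 20.2% higher and 19.9% lower, and the members at 39.7%, near that background. The split of the members was 13 higher and 11 lower with quantile normalization and 33 and 7 with equal library medians. As a share of reads assigned to named genes, the members went the other way. They took between 0.578% and 0.587% in DMSO and between 0.557% and 0.567% with the drug, without overlap. Mean size factors were 1.09 and 0.973, so the split into higher and lower depends on the scaling. MRPL genes were called higher in 14 and lower in 4 of 49 cases, with a median of 0.05, and MRPS genes in 8 and 5 of 29, with a median of 0.12. With quantile normalization the MRPL median was -0.01 and the MRPS median 0.03. Libraries did not overlap for 31 members that were higher, against 26.6% of all tested genes, and for 14 that were lower, against 25.8%.

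MRPS18B and MRPS30 rose most with the drug. MRPS18B had 17.3, 16.7 and 30.5 normalised reads in DMSO and 55.3, 72.5 and 51.8 with the drug, which are few reads, and differed by 0.62 ± 0.11 (SE, limma adjusted p = 5.20e-05). MRPS30 had 852, 823 and 789 and 1228, 1348 and 1332 normalised reads, 1.59 times as high with the drug, and differed by 0.61 ± 0.08 (SE, limma adjusted p = 2.08e-06). Libraries were separate for both.

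MRPL42 differed by 0.33 ± 0.08 (SE, limma adjusted p = 0.00186), MRPL48 by 0.32 ± 0.07 (SE, limma adjusted p = 0.000565) and MRPL9, a counterpart of bacterial L9, by 0.31 ± 0.05 (SE, limma adjusted p = 3.72e-05). MRPL58 differed by 0.28 ± 0.07 (SE, limma adjusted p = 0.00139), and the small-subunit members MRPS10 and MRPS9 by 0.28 ± 0.08 (SE, limma adjusted p = 0.00862) and 0.26 ± 0.08 (SE, limma adjusted p = 0.00958).

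MRPL51 fell most with the drug, from 3684, 3843 and 3769 to 2577, 2658 and 2626 normalised reads. Its log2 difference was -0.51 ± 0.06 (SE, limma adjusted p = 9.24e-07), and the libraries did not overlap. MRPS31 differed by -0.34 ± 0.07 (SE, limma adjusted p = 0.000341), MRPS17 by -0.29 ± 0.07 (SE, limma adjusted p = 0.00277) and MRPL57 by -0.27 ± 0.06 (SE, limma adjusted p = 0.00188). MRPS16, MRPL16, MRPS23 and MRPL28 were called lower with differences between -0.27 and -0.20. The comparisons of the drug in empty vector cells, of methionase at 24 h in DMSO and of time in empty vector cells share libraries. All use the empty vector libraries at 24 h in DMSO. Values of the same member in them, such as MRPS30, MRPL51 and MRPL19, are therefore not independent.

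In methionase cells, the drug raised 5 members and lowered none, with 7.93% of all tested genes called, 2.95% higher and 4.98% lower, and 6.41% of the members. Higher values without overlap were found in 11 members, against 8.55% of all tested genes. MRPL1 had 404, 384 and 376 normalised reads in DMSO and 468, 498 and 635 with the drug, without overlap, and differed by 0.38 ± 0.09 (SE, limma adjusted p = 0.00717). MRPL20 went from 1182, 1111 and 1083 to 1409, 1449.7 and 1423 normalised reads, again without overlap, and differed by 0.32 ± 0.06 (SE, limma adjusted p = 0.00069). MRPL55 differed by 0.30 ± 0.06 (SE, limma adjusted p = 0.00329), MRPL52 by 0.28 ± 0.07 (SE, limma adjusted p = 0.013) and MRPS30 by 0.28 ± 0.08 (SE, limma adjusted p = 0.0367), with overlapping libraries for MRPS30. Lower values had an unadjusted p below 0.05 in 2 members, a threshold with no computed share of all tested genes, and limma voom called 0 lower. A fit of only these 2 groups called 0 members.

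Members also changed with time in the controls. Empty vector cells at 24 h in DMSO had 1 member higher and 13 lower than at 12 h, with 4.61% of all tested genes called higher and 6.88% lower. Libraries did not overlap for 31 members that were lower, against 20.4% of all tested genes. MRPL genes made up 10 of the 13, and no MRPS gene was called higher by limma or by limma voom, nor at an unadjusted p below 0.05. MRPL20 had 1368, 1331 and 1346 normalised reads at 12 h and 979, 1002 and 1099 at 24 h, and differed by -0.37 ± 0.06 (SE, limma adjusted p = 0.000176). MRPL23 had 1030.4, 882 and 976 and 707, 737 and 749, and differed by -0.36 ± 0.07 (SE, limma adjusted p = 0.00179). Neither gene's libraries overlapped.

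MRPL19 differed over time by -0.31 ± 0.09 (SE, limma adjusted p = 0.0199), MRPL13 by -0.28 ± 0.06 (SE, limma adjusted p = 0.00801) and MRPL35 by -0.24 ± 0.07 (SE, limma adjusted p = 0.0284). MRPL3, MRPL40 and MRPS22 were called lower with differences of -0.23. MRPL10 was the member that rose, at 0.24 ± 0.06 (SE, limma adjusted p = 0.0184). The count of 14 called members depended on single libraries, and was 2 without empty vector 24 h DMSO replicate 1, 5 without empty vector 12 h DMSO replicate 2 and 5 without empty vector 12 h DMSO replicate 3. It was 6 without empty vector 24 h DMSO replicate 2 and 9 without empty vector 24 h DMSO replicate 3. With quantile normalization 2 members were higher and 4 lower.

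By role, the central protuberance, where the large subunit contacts the small one, had 4 of 9 members higher and 1 lower with methionase at 24 h in DMSO, where 18.1% of all tested genes were higher and 21.1% lower. MRPL18, MRPL48, MRPL55 and MRPL58 rose and MRPL46 fell. Under Vps34-IN1, 4 of 9 were higher, namely MRPL27, MRPL52, MRPL55 and MRPL58, against 17.3% of all tested genes. With so few members these counts are a description. MRPL38 and MRPL40 were not called with methionase, at -0.08 and 0.08 in DMSO.

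Of the 5 proteins of the stalk and its base, MRPL11 and MRPL53 were called higher with methionase at 24 h in DMSO, at 0.18 and 0.27. In that comparison 39.2% of all tested genes were called, 18.1% higher and 21.1% lower, and these counts are a description. MRPL12, which had 3036, 3279.8 and 3059.7 normalised reads with the empty vector and 3759, 3019.8 and 3331 with methionase, overlapped between groups. MRPL54 differed by 0.06, also not called. With the drug in empty vector cells, MRPL10, MRPL11 and MRPL53 were called higher, where 20.2% of all tested genes were higher.

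Of 8 members at the exit tunnel, 1 was called with methionase at 24 h in DMSO, which was MRPL39. All tested genes were called at 39.2% there. MRPL45, which anchors the ribosome to the inner membrane, was not called in any comparison and lay between -0.14 and 0.07 over all of them. MRPL17, MRPL24, MRPL44 and MRPL47 were not called in any comparison either. In the mRNA channel and decoding centre, MRPS5 lay between -0.05 and 0.19, MRPS12 between -0.20 and 0.13 and MRPS24 between -0.24 and 0.22 over the comparisons, and no value was called.

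Of the 3 counterparts of S18, MRPS18A fell with methionase in DMSO, as above. MRPS18C, the copy in the place of the bacterial protein, had 415, 479.8 and 464 normalised reads at 24 h in DMSO and 418, 392 and 351 with the drug in empty vector cells, with overlap, and was called at -0.19 ± 0.08 (SE, limma adjusted p = 0.0482). MRPS18B was called in that same comparison in the opposite direction. MRPS36, not a ribosomal protein, was not called in any comparison, and its differences lay between -0.23 and 0.32.

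Of the mitochondrial ribosomal proteins that carry other names, namely DAP3, PTCD3, AURKAIP1, CHCHD1 and GADD45GIP1, DAP3 was the 1 called with methionase at 24 h. All tested genes were called at 39.2% in that comparison and at 40.1% with the drug in empty vector cells. With so few genes these calls are a description. DAP3, a GTP-binding protein of the small subunit, differed by 0.18 ± 0.06 (SE, limma adjusted p = 0.0164). It was also called with the drug in empty vector cells, at 0.31 ± 0.06 (SE, limma adjusted p = 0.00013). PTCD3, an RNA-binding pentatricopeptide repeat protein, was called lower there, at -0.23 ± 0.06 (SE, limma adjusted p = 0.00218). GADD45GIP1 belongs to the large subunit and was not called in any comparison.

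The share of reads on the rRNA that these proteins bind was higher with methionase at 24 h. The 2 mitochondrial rRNAs, listed as RNR1 and RNR2, took 0.548 ± 0.0956% of the reads of empty vector libraries at 24 h in DMSO and 1.49 ± 0.536% of those of methionase libraries (mean ± SD, n = 3). RNR1 differed by 1.11 ± 0.15 (SE, limma adjusted p = 1.98e-06) and RNR2 by 1.49 ± 0.20 (SE, limma adjusted p = 2.21e-06). With the drug the shares were 1.20 ± 0.193% with the empty vector and 2.18 ± 0.288% with methionase, and at 12 h they were 0.240 ± 0.0453% and 0.355 ± 0.0295%. In libraries made from poly-A RNA these shares reflect only rRNA that was captured on oligo dT. Another class moved in the same libraries. Replication histone genes, whose messages normally lack a poly-A tail, took 0.0634 ± 0.00424% and 0.175 ± 0.0243% of reads in DMSO, and 0.151 ± 0.00411% and 0.267 ± 0.00544% with the drug, with the empty vector and with methionase in turn. All mitochondrial genes, the 2 rRNAs included, took 3.47 ± 0.971% and 5.06 ± 1.83% in DMSO, where the libraries of the 2 groups overlapped. With the drug they took 4.03 ± 0.480% and 6.25 ± 0.292%, without overlap. The part of RNA capture in these values and in the members' values was not tested.

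Of 26 assembly factors of the mitochondrial ribosome, 3 were called higher and 10 lower with methionase at 24 h, which is 11.5% and 38.5%, with a median of -0.13. All tested genes were called higher at 18.1% and lower at 21.1%. DDX28, a helicase of large-subunit assembly, differed by -0.77 ± 0.10 (SE, limma adjusted p = 1.19e-06). MRM2, which methylates the large rRNA, differed by -0.57 ± 0.07 (SE, limma adjusted p = 7.01e-07). Under the drug 3 were higher and 8 lower, which is 11.5% and 30.8%, against 17.3% and 22.2% of all tested genes. FASTKD2 and NSUN4 differed by -0.55 ± 0.07 (SE, limma adjusted p = 1.74e-06) and -0.53 ± 0.07 (SE, limma adjusted p = 2.37e-06). RBFA, a factor of the small subunit, was lower with the drug in empty vector cells, at -0.56 ± 0.07 (SE, limma adjusted p = 9.36e-07).

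Of 19 translation factors, 6 were higher and 6 lower with methionase at 24 h in DMSO, against 18.1% and 21.1% of all tested genes. MRRF, the recycling factor, differed by 0.56 ± 0.09 (SE, limma adjusted p = 1.43e-05). MTRFR, which rescues stalled ribosomes, had 807, 751 and 683 normalised reads with the empty vector and 478, 472 and 543 with methionase in DMSO. Under the drug it had 674, 571 and 599 and 309, 251 and 281, and differed by -0.95 ± 0.08 (SE, limma adjusted p = 5.28e-09). TSFM, the exchange factor of the elongation factor TUFM, differed in DMSO by -0.40 ± 0.07 (SE, limma adjusted p = 0.000107).

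Among 12 regulators of nuclear genes for mitochondria, NRF1, TFAM and TFB2M were called lower with methionase at 24 h in DMSO. The differences were -0.20 for NRF1, -0.46 for TFAM, which packages mitochondrial DNA, and -0.41 for TFB2M. GABPA differed by 0.05 and YY1 by -0.11, neither called. Cytosolic ribosomal protein genes, set beside the members, were higher in 49 of 78 cases with methionase at 24 h in DMSO, with a median of 0.29 log2. Nuclear subunits of complex I were higher in 8 and lower in 2 of 35 cases. In this comparison 18.1% of all tested genes were higher and 21.1% lower. Differences between these lists and the members were not tested.

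**Figure D5:**
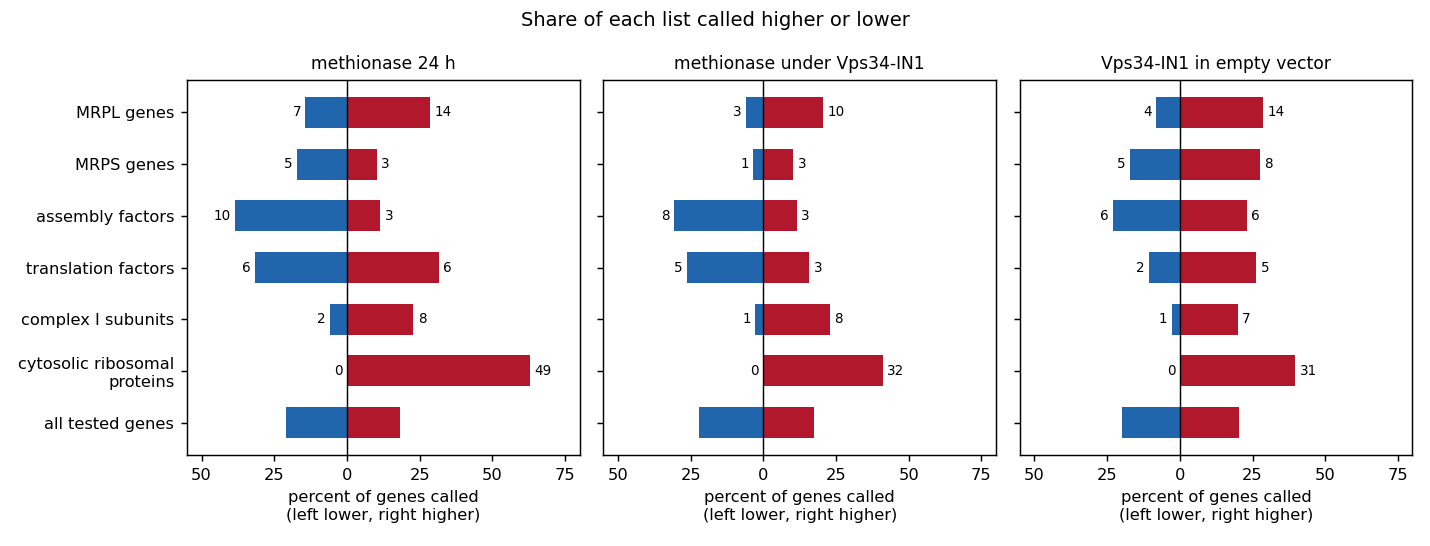
Percent of each list called higher (red, right) or lower (blue, left) in 3 comparisons, with the number of genes at each bar and all tested genes at the bottom. With methionase at 24 h, MRPL genes show 14 higher and 7 lower, assembly factors 3 and 10, and cytosolic ribosomal proteins 49 higher.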

How the data were processed

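Poly-A RNA of 18 HEK293T libraries was sequenced, 3 in each of 6 groups. The deposited values are log2 values that the authors made by a variance-stabilising transform of normalised read counts, per the name of the deposited table. The submitters' processing notes name STAR 2.7.10b, featureCounts, DESeq2, limma and hg38; the gene annotation and the strand setting are not given in the sources used here. Inverting the transform gave read counts, and 100% of values came within 0.01 of a whole read; size factors lay between 0.892 and 1.10. The 1 line that names no gene held at most 0.0022% of a library's reads and was left out. No pair of replicates agreed within sampling noise. All columns of values were used.

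Genes were tested with limma 3.58.1 in R 4.3.3 on the deposited log2 values, with 1 mean per group over all 18 libraries, a variance trend and Benjamini-Hochberg adjustment over 17755 genes, called below 0.05. A gene was kept when its mean was at least 0.5 above the lowest value of the table, 5.45. There was no correction over the 8 comparisons. The script was tested on simulated data. Because the transform compresses low values, log2 differences of low genes such as MRPS18B understate the change. Promoters came from RefSeq and exon lengths and overlaps from GENCODE 29. Alternatives were no filter, quantile normalization, equal library medians, no variance trend, only the groups compared, a replicate block, limma voom on the recovered counts, and each library left out.

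Named members are up to 8 per direction by size among those called, 4 in the interactions, plus role groups and other lists. The members and lists were chosen with earlier results of these data known.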

Additional observations from a re-analysis of the deposited data

Results flagged for a closer look

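The methionase difference at 24 h was tested against itself under Vps34-IN1 and against that at 12 h, and each member below passed that test of the difference. Values are signed shifts of the difference, so that for a member lowered in DMSO a positive shift can mean a smaller fall. From DMSO to Vps34-IN1 the difference shifted by 0.52 log2 for MRPL1, 0.49 for MRPS31, 0.39 for MRPL57 and 0.34 for MRPL23. It shifted by 0.32 for MRPL16, 0.32 for MRPL51, 0.32 for MRPS17, 0.30 for MRPL20, 0.28 for MRPS23 and 0.24 for MRPS16, and by -0.34 for MRPS30. MRPL51, for example, went from -0.42 to -0.10. Its mean in DMSO and with the drug was 3766 and 2620 normalised reads with the empty vector, and 2801 and 2447 with methionase. The smaller difference of MRPL51 thus came with lower levels under the drug. The calls of MRPS30, MRPS16, MRPS23 and MRPS17 were lost in 11, 13, 10 and 7 of 19 alternatives, and those of the other 7 members in none. From 12 h to 24 h in DMSO the methionase difference shifted by 0.42 for MRPL19, 0.41 for MRPL32, 0.35 for MRPL48, 0.35 for MRPS15, 0.29 for MRPL9, 0.27 for MRPL20, 0.27 for MRPL18 and 0.27 for MRPL11, and by -0.28 for MRPL51. Here the calls of MRPL51, MRPL11, MRPL18, MRPL19, MRPL20 and MRPL48 were lost in 13, 10, 10, 7, 5 and 2 of 19 alternatives, and those of MRPL32, MRPS15 and MRPL9 in none. MRPL20 and MRPL51 appear in both lists. Both tests contain the methionase difference at 24 h in DMSO, with opposite signs, so the lists are not independent. Groups of 3 libraries were too small to test for single outlying libraries. With methionase at 24 h in DMSO, replicate 1 held 3.05% mitochondrial reads, against 6.63% and 5.48% in replicates 2 and 3. The members took 0.600% of its reads, against 0.556% and 0.574%. Without replicate 1 of that group, 15 members were called higher and 14 lower with methionase at 24 h.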

How the results depend on the processing

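Counts of called members are given as total. Without the filter on low values they were 0 for methionase at 12 h, 7 for methionase by Vps34-IN1, 5 for methionase by time and 6 for the empty vector over time. Quantile normalization gave 0 for methionase at 12 h, 37 for methionase under Vps34-IN1 and 6 for the empty vector over time, and 40 for methionase at 24 h. Equal library medians gave 2 at 12 h, 10 for Vps34-IN1 in methionase cells and 14 by time, all 14 higher. No variance trend gave 0 at 12 h and 9 over time. Limma voom gave 2 at 12 h. Fits of only the groups compared gave 6 at 12 h, 0 for Vps34-IN1 in methionase cells, 17 by time and 24 over time; the cause was not tested. Leaving out 1 library gave 0 to 0 at 12 h, 23 to 32 for methionase at 24 h, 14 to 17 under Vps34-IN1, 24 to 28 for Vps34-IN1 in empty vector cells, 4 to 7 in methionase cells, 7 to 18 by Vps34-IN1, 3 to 12 by time and 2 to 10 over time. No library left out turned a called member's direction, and no alternative did. Scaling moved the median of all tested genes by at most 0.06 log2. Medians of the members moved further with quantile normalization, as for MRPL under Vps34-IN1, from 0.07 to 0.18.

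With the replicate number as a block, the replicate block gave 1, 28, 17, 30, 5, 10, 8 and 13 called members, in the order methionase at 12 h, at 24 h, under Vps34-IN1, the drug in empty vector cells, in methionase cells, methionase by drug, by time, and the empty vector over time. Same-numbered libraries correlated between -0.31 and 0.16, and 3 of 18 correlated best with their own number, so the numbers were not taken as pairs. With 3 libraries a group and no statement on separate cultures, the p-values cover only the spread of these libraries, and members with few reads such as MRPS18B and MRPS24 have the least precise levels.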

Other observations

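In GENCODE 29, 29 of 78 members (37.2%) had the start of a gene on the other strand within 1000 bp, against 2211 of 13308 tested protein-coding genes (16.6%). The share was 42.9% of MRPL and 27.6% of MRPS genes. MRPL46 and MRPS11 face each other, and with methionase at 24 h they differed by -0.31 and -0.19 log2, the second not called (limma adjusted p = 0.0732).

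There were 10 pairs of a member called with methionase at 24 h in DMSO and a tested neighbour. The neighbour was called in the same direction in 1 pair, in the opposite direction in 3 and not called in 6. All tested genes were called at 39.2% in this comparison, 18.1% higher and 21.1% lower, so these counts are a description. MRPL57 and SKA3 both fell, SKA3 by 0.41 log2. MRPL49 fell while FAU, a cytosolic ribosomal protein gene, rose by 0.29. MRPL51 fell while NCAPD2, a subunit of condensin, differed by 0.01. MRPL32 rose while PSMA2, a proteasome subunit, was not called. Some of these pairs share exon sequence on opposite strands, and how their reads were assigned is not given in the sources used here.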
